A study of Homo sapiens with 20 samples.

Results

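The transcripts described here come from the 37 genes of the human mitochondrial genome, taken as every row of the count tables whose gene symbol begins with MT-. They are 13 mRNAs, 2 ribosomal RNAs (rRNAs) and 22 transfer RNAs (tRNAs) among 58233 gene identifiers. The members were chosen by symbol and no measured value entered the rule, but the group was proposed with results of these same counts known. RNA-seq of 20 libraries covered 4 lung cancer cell lines, each carrying Cas9 and 1 of 4 sgRNAs, GFP sg1 or sg2 as controls and ADAR sg1 or sg2. ADAR encodes the RNA-editing enzyme ADAR1. A549, a lung adenocarcinoma line that tolerates loss of ADAR1, was held as stably modified cells and given vehicle (sterile water) or 10 ng/mL interferon-β (IFN-β) for 24 h, with the GFP and the ADAR cells in both arms, which makes 8 libraries. HCC366 (lung adenosquamous carcinoma), NCI-H1650 (lung adenocarcinoma) and NCI-H196 (variant small cell lung cancer), which depend on ADAR1, received no IFN-β and were collected 5 days after transduction with lentivirus carrying Cas9 and the sgRNA, 4 libraries each. The 2 sgRNAs stood in for replicates in each of the 10 conditions, and no label names separate cultures, so p-values measure the spread between these libraries only. The sgRNA cells are transduced populations whose ADAR transcript can persist after editing.

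Each mitochondrion holds many copies of a small circular genome, which is transcribed on both strands into long RNAs and then cut, largely at the tRNAs that lie between the other genes. The 13 mRNAs encode subunits of 4 of the enzyme complexes of oxidative phosphorylation: MT-ND1 to MT-ND6 with MT-ND4L belong to complex I, MT-CYB to complex III, MT-CO1 to MT-CO3 to complex IV (cytochrome c oxidase), and MT-ATP6 with MT-ATP8 to the ATP synthase. MT-RNR1 and MT-RNR2 are the 12S and 16S RNAs of the mitochondrial ribosome. Double-stranded RNA from this genome can be sensed by the innate immune system when it leaves the organelle, and the exoribonuclease encoded by PNPT1 limits its amount.

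The genes leave little room between them. On the mitochondrial chromosome of the GRCh37 reference (M, 16569 bases), the 37 genes covered 15358 bases (92.7%), and most of the rest was the 1122-base control region between MT-TP and MT-TF. The tRNA genes were 59 to 75 bases long. MT-ND6 and 8 tRNA genes lay on the opposite strand to the other 28. The 3 sequences that follow show a tRNA gene between both rRNA genes (MT-TV), the tRNA gene that borders the control region (MT-TP) and one that runs against the strand of its neighbour MT-CO1 (MT-TS1). Capitals mark the tRNA gene and lower case the 20 bases on each side, all from GRCh37 and written 5′ to 3′ on the tRNA's own strand.
MT-TV, M:1582-1690, plus strand: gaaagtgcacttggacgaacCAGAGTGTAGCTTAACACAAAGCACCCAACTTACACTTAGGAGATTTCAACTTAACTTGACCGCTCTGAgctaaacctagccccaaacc
MT-TP, M:15936-16043, minus strand: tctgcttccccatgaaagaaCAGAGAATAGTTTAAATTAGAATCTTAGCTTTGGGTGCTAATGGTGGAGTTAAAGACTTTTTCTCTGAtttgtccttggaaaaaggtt
MT-TS1, M:7426-7534, minus strand: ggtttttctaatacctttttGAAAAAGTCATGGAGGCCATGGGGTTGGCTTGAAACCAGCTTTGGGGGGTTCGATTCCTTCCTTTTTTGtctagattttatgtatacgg
Both mRNA pairs below share bases, in capitals, so a read over them touches 2 genes. MT-ATP8 and MT-ATP6 share 46 bases in different reading frames, and MT-ND4L and MT-ND4 share 7.
MT-ATP8/MT-ATP6, M:8507-8592, plus strand: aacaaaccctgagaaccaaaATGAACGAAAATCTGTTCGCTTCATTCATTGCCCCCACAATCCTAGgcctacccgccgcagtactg
MT-ND4L/MT-ND4, M:10740-10786, plus strand: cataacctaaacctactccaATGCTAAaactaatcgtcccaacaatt

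Almost no read was counted on the tRNAs. Over the 20 libraries the 22 tRNA genes held 3405 reads, of which 3375 (99.1%) fell on MT-TP, the tRNA for proline shown above. MT-TF, at the other edge of the control region, held 18 reads, 8 further tRNAs held 1 to 4 each, and 12 held none. MT-TP was the only tRNA tested. It averaged 43.9 ± 0.0883 CPM (mean ± SD, n = 2) in the A549 GFP vehicle libraries and had 11.4 and 15.2 in the HCC366 GFP libraries, where CPM is the count scaled to a library's total gene counts, with TMM factors over the 20 libraries. Its log2 differences from A549 were -1.66 (HCC366), -2.22 (NCI-H1650) and -3.88 (the line NCI-H196), all called lower by edgeR, and no ADAR or IFN-β contrast called it. The strand setting of the counting was not given. Counting without strand sets reads that lie on 2 overlapping genes aside as ambiguous, and of 57 nuclear genes lying wholly inside exons of a gene on the opposite strand, 53 had no read in any library. Reads on MT-TP or MT-ND6 therefore cannot be assigned to a strand, and nothing below reads the tRNA counts as tRNA levels.

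Total gene counts ran from 62679 to 19520189 per library. NCI-H196 GFP sg2 was the shallowest, with 148 reads on MT-CO1 and none on MT-ATP8 or MT-ND3. HCC366 ADAR sg2 also stood apart, with 85.6% of its alignments not unique against 22.5 to 59.1% in the other 19 libraries. The ADAR transcript itself fell with ADAR sgRNAs in A549 with vehicle (log2 fold change -1.08), NCI-H1650 (-1.29) and NCI-H196 (-0.41). The edgeR adjusted p-values were 1.0e-04, 6.6e-14 and 0.0017. In HCC366 it stood at -0.84 (adjusted p = 0.21) and in A549 with IFN-β at -0.60 (adjusted p = 0.0015), both by edgeR. IFN-β raised the ADAR transcript in A549 GFP (1.47) and ADAR cells (1.95). The ADAR IFN-β libraries held 810 and 1057 CPM of it, above the 527 and 545 of the GFP vehicle libraries. Markers fitted the labels in part: 6 epithelial genes summed to 2626 to 9849 CPM in A549, HCC366 and NCI-H1650 but to 52.1 to 83.6 in NCI-H196. The 5 neuroendocrine markers summed to 10.4 to 15.9 CPM in NCI-H196 and to 3.03 to 25.1 over the other lines, with NEUROD1 at 0 in all 4. The 3 squamous markers summed to 1.43 to 7.38 CPM in the adenosquamous line HCC366 and to 14.6 to 41.7 in NCI-H196. In NCI-H1650 the squamous sum was 9.91 to 12.3 and in A549 2.37 to 3.64.

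A549 devoted a larger share of its counts to mitochondrial mRNAs than the other lines did. In A549 GFP cells with vehicle the 13 mRNAs took 2.59 and 3.49% of gene counts (sg1 and sg2), a mean of 3.04 ± 0.635% (SD, n = 2). HCC366 GFP libraries held 0.955 and 1.07%, NCI-H1650 GFP libraries 0.807 and 0.778% and NCI-H196 GFP libraries 0.507 and 0.587%. The lowest of the 8 A549 libraries (1.99%) was above the highest of the other 12 (1.07%). Counting error was small beside these gaps: the widest 95% Wilson interval, that of NCI-H196 GFP sg2, ran from 0.530 to 0.650%, and it covers counting error only. With ADAR sgRNAs the share was 0.744 and 0.362% for HCC366, 0.626 and 0.742% for NCI-H1650 and 0.429 and 0.410% for NCI-H196, in each line below both GFP libraries. In A549 the ADAR libraries held 3.59 and 2.49% with vehicle and 2.72 and 3.17% with IFN-β, and the GFP libraries with IFN-β 3.56 and 1.99%, so all 4 A549 conditions overlapped. Fewer mitochondrial transcripts per cell and more of other RNA in the library cannot be told apart in a share.

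**Figure D1:**
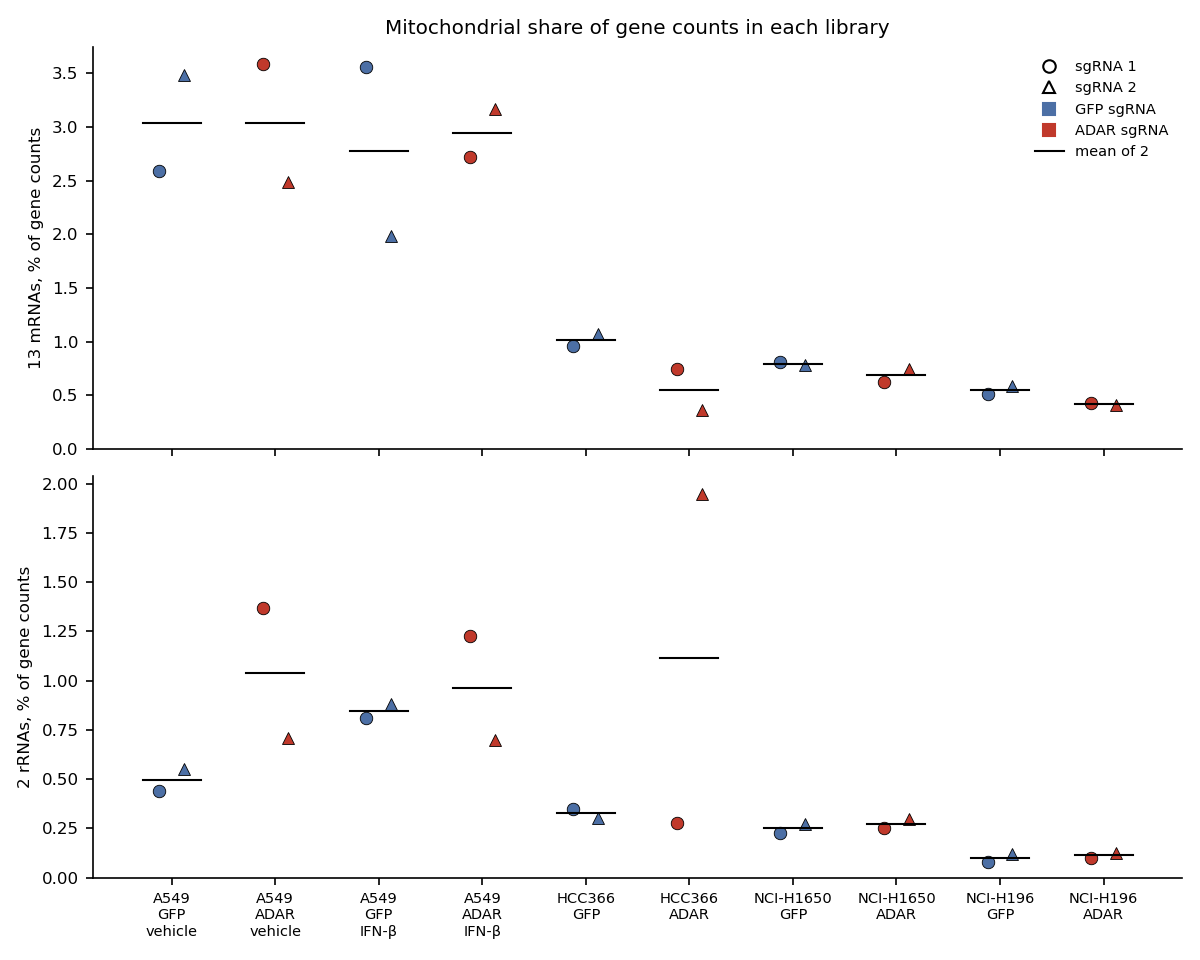
Share of gene counts on the 13 mitochondrial mRNAs (upper panel) and 2 rRNAs (lower panel), in percent, for each library, with GFP sgRNAs in blue, ADAR sgRNAs in red, circles for sg1, triangles for sg2 and a bar at the mean of 2. All 8 A549 libraries lie above the other 12 for the mRNAs (1.99% against 1.07%), and HCC366 ADAR sg2 is the highest of all for the rRNAs (1.95%).

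The mRNA with the highest mean level in the GFP libraries of each line encoded a cytochrome c oxidase subunit. Levels were set side by side as CPM per 1000 bases of gene. In A549 GFP cells with vehicle MT-CO2 reached 6153 ± 1602, MT-CO1 5666 ± 861 and MT-CO3 5323 ± 827 CPM per 1000 bases (mean ± SD, n = 2), and the values of these neighbours overlapped. MT-ATP6 followed at 4021 ± 1263, MT-ND4 at 3028 ± 763, MT-ND1 at 2673 ± 551, MT-ND2 at 2513 ± 743 and MT-CYB at 2079 ± 484. Then came MT-ND5 (1701 ± 426), MT-ND4L (1306 ± 284), MT-ND3 (1234 ± 455) and MT-ND6 (1069.5 ± 328), with MT-ATP8 last at 636 ± 265. The values of MT-ATP8 lay apart from those of MT-ND6, and each other neighbouring pair in that order overlapped.

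MT-CO1 ranked first in the GFP libraries of the other 3 lines, apart from the next gene in each. It stood at 1790.1 ± 128 in HCC366, 1672 ± 104 in NCI-H1650 and 1024 ± 32.9 CPM per 1000 bases in NCI-H196. The next gene was MT-CO2 in HCC366 (997 ± 106), MT-CO3 in NCI-H1650 (1319 ± 96.4) and MT-CO2 in NCI-H196 (613 ± 60.4). Over the 20 single libraries MT-CO1 was first in 12, MT-CO2 in 7, all of them A549, and MT-ND1 in 1, HCC366 ADAR sg2. MT-ATP8 was last in 19 and tied for last in NCI-H196 GFP sg2, where neither it nor MT-ND3 had a read. Over the bases it does not share with MT-ATP6, the A549 level of MT-ATP8 was 818.

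**Figure D2:**
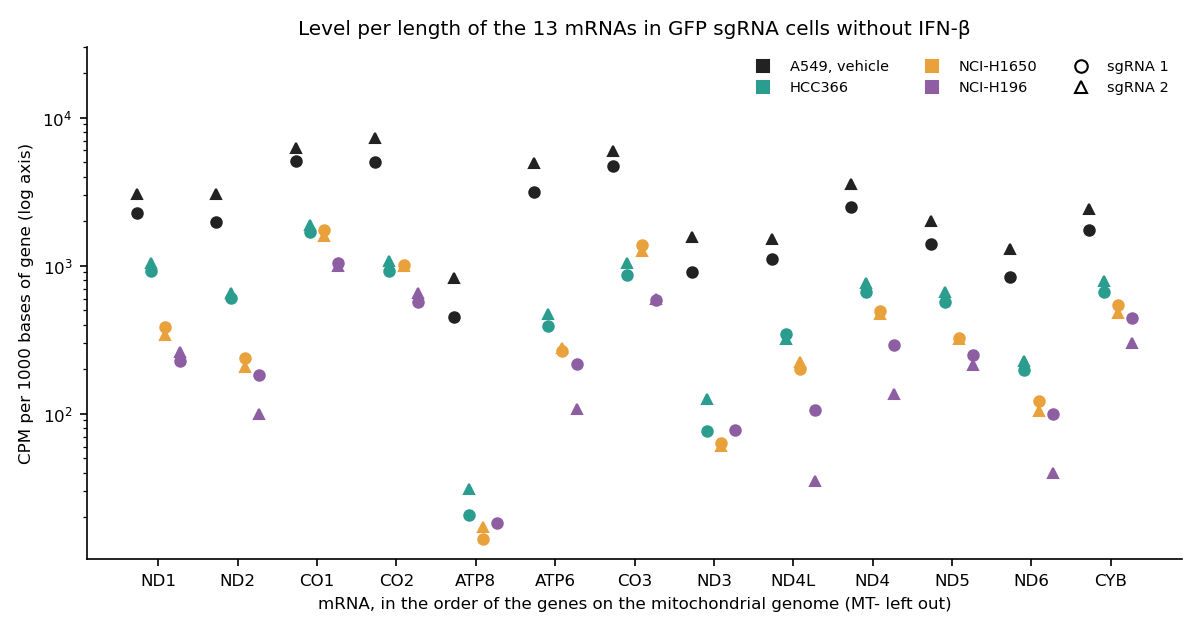
Level of each of the 13 mRNAs in CPM per 1000 bases of gene (log axis) in the GFP libraries without IFN-β, coloured by line, with circles for sg1 and triangles for sg2. A549 is highest for every gene, and the short gene MT-ATP8 shows the widest gap between A549 and each other line. Libraries with no read (MT-ATP8 and MT-ND3 in NCI-H196 sg2) are not drawn.

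All 13 mRNAs were lower in each ADAR1-dependent line than in A549, comparing GFP libraries without IFN-β. In HCC366 the median log2 difference was -2.08 and the range -4.52 to -1.45. edgeR called 26.6% of the 19523 genes tested lower in this comparison. NCI-H1650 had a median of -2.65 and a range of -5.34 to -1.76, against 26.3% of genes called lower, and NCI-H196 a median of -3.51 and a range of -5.14 to -2.38, against 27.6%. In each comparison all 13 were below A549 in every library pair, and so were 39.4, 38.7 and 38.9% of all genes tested. The median of all genes tested was between 0 and 0.07 in the 3 comparisons. These lines differ from A549 also in the time since transduction and in the vehicle, which cannot be told apart from the line. Without NCI-H196 GFP sg1, which leaves the shallow library alone, the median was -4.49 and 12 mRNAs were called.

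MT-CO1, the catalytic core of complex IV, illustrates the smaller gaps. It had 7798 and 9677 CPM in A549 GFP vehicle libraries, 2621 and 2900.1 in HCC366, 2691 and 2465 in NCI-H1650 and 1615 and 1543 in NCI-H196. The groups did not overlap. The log2 differences from A549 were -1.66 ± 0.35 (SE, adjusted p = 1.6e-04), -1.76 ± 0.35 (SE, adjusted p = 7.0e-05) and -2.46 ± 0.37 (SE, adjusted p = 8.0e-07) by edgeR, which put the 3 lines at 31.6, 29.5 and 18.2% of the A549 level. MT-ATP8, a small subunit of the ATP synthase, had the widest gaps. It had 92.9 and 170.4 CPM in A549, 4.28 and 6.401 in HCC366, 2.95 and 3.54 in NCI-H1650 and 3.77 and 0 in NCI-H196. Its log2 differences were -4.52 ± 0.44 (SE, adjusted p = 2.0e-10), -5.34 ± 0.42 (SE, adjusted p = 1.1e-12) and -5.14 ± 0.50 (SE, adjusted p = 1.2e-10) in the same order by edgeR. MT-ND3, a short complex I gene, came next in HCC366 and NCI-H1650 with -3.55 and -4.32, and in NCI-H196 the second widest was MT-ATP6 with -4.34.

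The order of the ADAR1-dependent lines depended on the gene. MT-ND1 stood at 880.0 and 990.4 CPM in HCC366 and 368 and 327 in NCI-H1650, whereas MT-CO3 stood at 679.8 and 818 in HCC366 and 1087 and 980.5 in NCI-H1650, so the order of these lines turned between the genes. Against A549, MT-ND1 differed by -1.45 in HCC366 and -2.88 in NCI-H1650, and MT-ND2 by -1.99 and -3.49, while MT-CO3 differed by -2.47 and -2.01 (log2). The 2 lines were not tested against each other. MT-CO1 took 22.7 to 25.9% of the mRNA counts in the A549 libraries and 36.4 to 41.3% in those of NCI-H1650, with no overlap. In NCI-H196 it took 29.9 to 40.2%.

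The gap to A549 was wider for short mitochondrial genes than for long ones. Spearman's rho between gene length and the log2 difference over the 13 mRNAs was 0.69 for HCC366, 0.64 for NCI-H1650 and 0.68 for NCI-H196, a description over genes that share their libraries. The counts on MT-ATP8 were 4.18 to 5.50% of those on its overlapping neighbour MT-ATP6 in A549, 1.14 to 2.30% in NCI-H1650 and 0 to 2.56% in NCI-H196. In HCC366 they were 1.61 to 6.41%, and the highest value, above all A549 libraries, was that of ADAR sg2. Nuclear protein-coding genes moved with length in the same 3 comparisons: those with under 1000 exon bases had median log2 differences of -0.77, -0.50 and -1.0, and those of 4000 to under 8000 bases -0.03, 0.01 and 0.02. The 68 nuclear mRNA genes under 700 bases took 0.477 to 0.645% of nuclear mRNA counts in A549 and 0.115 to 0.364% elsewhere. The part of library length in the mitochondrial differences was not tested.

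**Figure D3:**
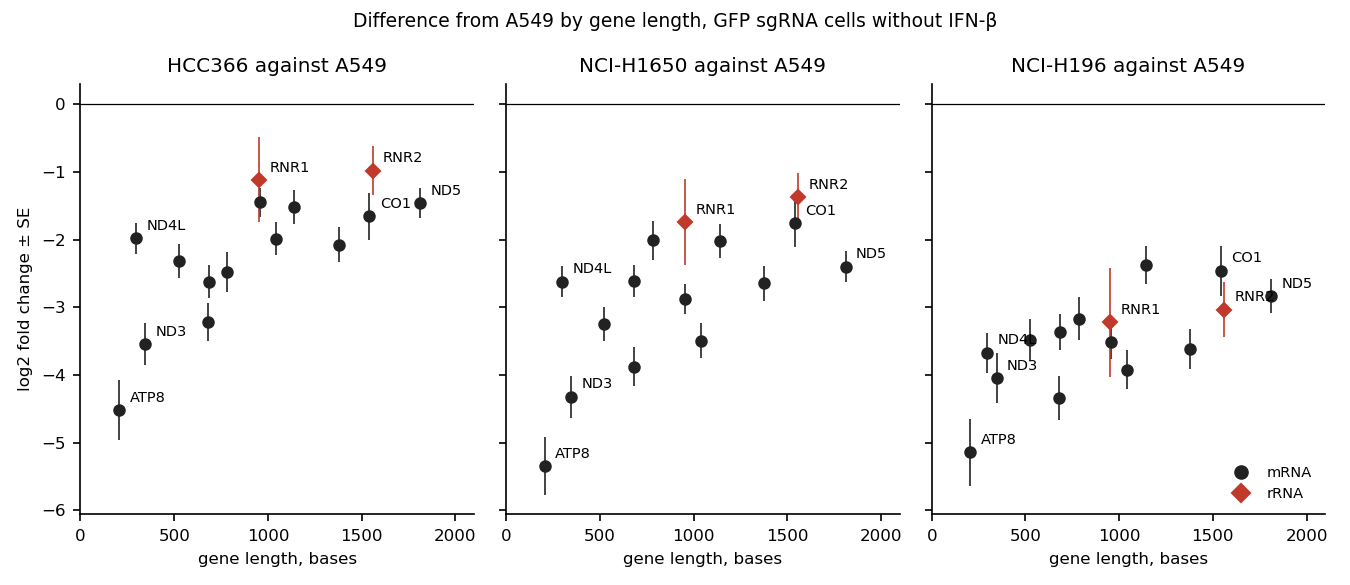
Log2 difference from A549 (edgeR, ± SE) of the 13 mRNAs (black circles) and 2 rRNAs (red diamonds) against gene length in bases, in 1 panel per line, GFP libraries without IFN-β. Every gene lies below 0, and the shortest, MT-ATP8, lies lowest in each panel (-4.52, -5.34 and -5.14).

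With ADAR sgRNAs, the mitochondrial mRNAs were modestly lower in NCI-H1650. All 13 log2 fold changes were below 0, with a median of -0.28 and a range of -0.36 to -0.07, beside a median of 0.01 over all genes tested. edgeR called 4 of 13 lower (30.8%) and none higher, where 2.42% of 14530 genes were called lower. They were MT-CYB (-0.36 ± 0.10 SE, adjusted p = 0.016), MT-ND4 (-0.33 ± 0.10 SE, adjusted p = 0.026), MT-CO3 (-0.33 ± 0.10 SE, adjusted p = 0.033) and MT-ND5 (-0.31 ± 0.10 SE, adjusted p = 0.043). MT-CYB, the only mitochondrially encoded subunit of complex III, had 616 and 548 CPM in the GFP and 412 and 502 in the ADAR libraries. MT-ND4 had 679.8 and 648 against 492 and 574. Both genes were lower in each ADAR library than in either GFP library, as were 10 of the 13 mRNAs, where 22.3% of all genes tested were apart and lower. The count of calls was 2 with DESeq2 and 0 in a fit of all 20 libraries. It was 0 without GFP sg1 or without ADAR sg1, and 1 without GFP sg2.

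In NCI-H196 the mRNAs that passed the test encode cytochrome c oxidase and ATP synthase subunits. Of 12 mRNAs tested (MT-ATP8 had too few reads), edgeR called 3 lower (25.0%), where 7.50% of 14094 genes were called lower: MT-CO1 (-0.49 ± 0.11 SE, adjusted p = 3.0e-04), MT-CO3 (-0.31 ± 0.11 SE, adjusted p = 0.023) and MT-ATP6 (-0.28 ± 0.10 SE, adjusted p = 0.040). MT-CO1 had 1615 and 1543 CPM with GFP and 1061 and 1235 with ADAR sgRNAs, which did not overlap. MT-ATP6 had 147 and 73.0 CPM with GFP and 115 and 120 with ADAR sgRNAs, which overlapped. Its GFP sg2 value rests on 7 reads. Among the 12 mRNAs, each ADAR library was under each GFP library for 3 and over for 1, against 11.9% and 23.8% of all genes tested. The median over the 12 was -0.14, and complex I genes ran from -0.29 (MT-ND3) to 0.14 (MT-ND4L), none past the threshold. No call remained with DESeq2, with the sgRNA number as a block, in the fit of all 20 libraries, or without either ADAR library. With GFP sg2, the library of 62679 counts, as the only control, the median turned to 0.31 and MT-ATP6 to 0.43.

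In HCC366 none of the 13 mRNAs was called by edgeR or DESeq2, although 12 lay below 0, with a median of -0.74 (range -1.06 to 0.19) and 4 had an unadjusted p under 0.05. edgeR called 0.0449% of 11135 genes lower in this comparison. For 10 of the 13 each ADAR library was under each GFP library, where 28.3% of all genes tested were apart and lower. MT-ND4 had 922 and 1054 CPM with GFP and 603 and 395 with ADAR sgRNAs (-0.96 ± 0.31 SE, adjusted p = 0.18 by edgeR). MT-CO1 had 2621 and 2900.1 against 2191 and 438, which puts ADAR sg2 far below the other 3 libraries. That library also had 537 rRNA counts per 100 mRNA counts (28.0 to 37.6 in the other 3), and MT-CO1 took 12.1% of its mRNA counts against 29.4 to 32.5%. Without it the median was -0.48, and the comparison then rests on ADAR sg1 alone. Without ADAR sg1, the comparison rests on ADAR sg2 alone. In the fit of all 20 libraries 8 were called, and the share of all genes called there is not reported here.

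**Figure D4:**
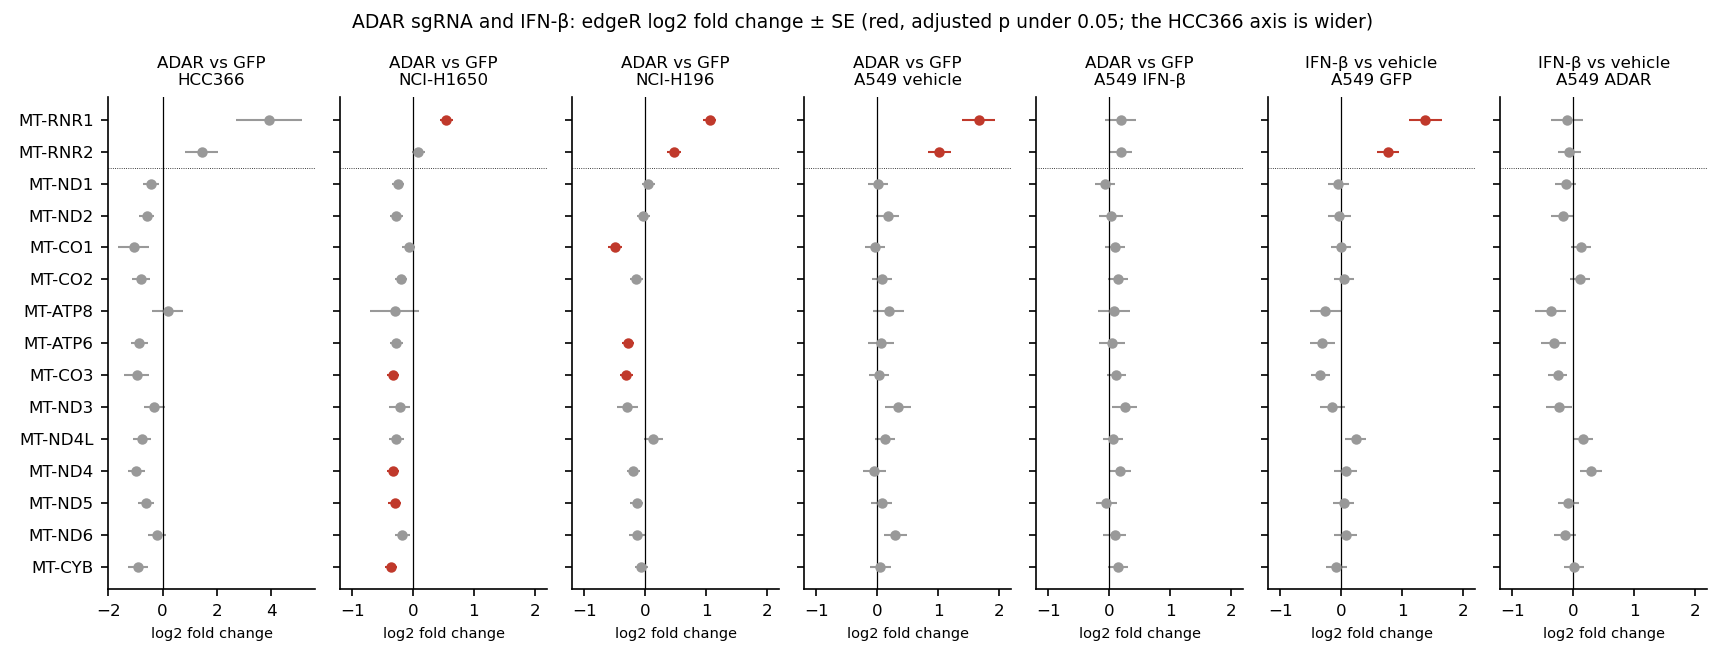
edgeR log2 fold changes ± SE of the 2 rRNAs (top) and 13 mRNAs for the ADAR sgRNAs in each setting and for IFN-β in A549 GFP and ADAR cells, red where the adjusted p was under 0.05. The mRNAs sit left of 0 in NCI-H1650 (median -0.28) and around 0 in A549, while MT-RNR1 is past the threshold and right of 0 in A549 with vehicle (1.67), NCI-H1650 (0.55), NCI-H196 (1.06) and with IFN-β in A549 GFP cells (1.38).

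In A549, ADAR sgRNAs left no mRNA past the threshold. With vehicle the median log2 fold change was 0.07 (range -0.05 to 0.34), edgeR called 0 of 13 where 0.123% of 15449 genes were called in either direction, none had an unadjusted p under 0.05, and DESeq2 called 0. With IFN-β the median was 0.09 (range -0.07 to 0.26) and edgeR again called 0 of 13, with none at an unadjusted p under 0.05, where 10.8% of genes were called higher and 6.19% lower. DESeq2 called 0. The libraries of 1 condition differed more than the conditions did. MT-CO1 had 7798 and 9677 CPM with GFP and 10073 and 6897 with ADAR sgRNAs under vehicle, and 10733 and 6395 with GFP against 8004 and 9748 with ADAR sgRNAs under IFN-β. The SD between libraries of a condition, taken on the median log2 CPM of the 13 mRNAs, was 0.41 for the vehicle and 0.42 for the IFN-β comparison. With A549 GFP IFN-β sg1 left out, the median with ADAR sgRNAs under IFN-β was 0.60, against a single control library. The remaining control, GFP IFN-β sg2, had the lowest mRNA share of the 8.

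IFN-β itself moved no mitochondrial mRNA past the threshold in the fit without a block. In A549 GFP cells the median was -0.03 (range -0.34 to 0.24), 0 of 13 were called by edgeR or DESeq2 and 1 had an unadjusted p under 0.05, where edgeR called 5.70% of genes. In ADAR cells the median was -0.13 (range -0.37 to 0.29), again 0 of 13 by both tools with 0 at an unadjusted p under 0.05, where 24.5% were called. There 3 mRNAs were lower in both IFN-β libraries than in both vehicle libraries, against 35.8% of all genes tested. Vehicle and IFN-β libraries of the same sgRNA come from the same modified cells. With the sgRNA as a block, edgeR called MT-CO3 (-0.40, adjusted p = 0.016) and MT-ATP6 (-0.39, adjusted p = 0.027) lower with IFN-β in GFP cells. In ADAR cells it called MT-ATP8 lower (-0.34, adjusted p = 0.030) and MT-ND4 higher (0.31, adjusted p = 0.039). MT-CO3 had 3715 and 4632 CPM in GFP vehicle and 4170.4 and 2298 in GFP IFN-β libraries, which overlap. It thus rose in sg1 and fell in sg2, as did MT-ATP6 (2130 to 2988 and 3347 to 1354). In ADAR cells MT-ND4 fell in sg1 (4736 to 4193) and rose in sg2 (3306 to 5281). MT-ATP8 fell in both (183 to 110 and 119 to 113). The difference of the IFN-β response between ADAR and GFP cells was past the threshold for 0 of 13 mRNAs by edgeR and DESeq2, with 0 at an unadjusted p under 0.05, where edgeR called 5.05% of genes. With 1 library left out at a time, the median of this difference ran from -0.39 to 0.55. The median for IFN-β in GFP cells then ran from -0.48 to 0.34.

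The rRNAs are given apart from the mRNAs. The depletion step applied to all libraries removes rRNA, mitochondrial rRNA included, so what was counted is the remainder, and its efficiency per library was not measured. In A549 GFP cells with vehicle MT-RNR1 had 459.6 and 740.2 CPM and MT-RNR2 4734 and 5903. ADAR cells with vehicle had 2690.1 and 1111 for MT-RNR1 and 13905 and 7565 for MT-RNR2, each above both GFP libraries, as were 18.2% of all genes tested. edgeR log2 fold changes were 1.67 ± 0.27 (SE, adjusted p = 0.0044) and 1.02 ± 0.19 (SE, adjusted p = 0.011). The rRNAs were thus 2 of the 5 genes called higher in that comparison, 0.0324% of 15449. DESeq2 and the fit of all 20 libraries called neither. The call of MT-RNR2 was also lost without GFP sg1 (0.89) or GFP sg2 (1.17). Without ADAR sg1 the values were 0.88 for MT-RNR1 and 0.50 for MT-RNR2, neither called.

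More of both rRNAs was counted with IFN-β than with vehicle in A549 GFP cells, and neither passed the test in ADAR cells. GFP IFN-β libraries held 1277 and 1808 CPM of MT-RNR1 and 8701 and 9136 of MT-RNR2, above both vehicle libraries, as were 19.6% of all genes tested. The edgeR log2 fold changes were 1.38 ± 0.27 (SE, adjusted p = 5.4e-04) and 0.77 ± 0.19 (SE, adjusted p = 0.0072), where 4.39% of genes were called higher. DESeq2 and the fit of all 20 libraries called neither, and MT-RNR2 was not called without GFP vehicle sg1 (0.62). In ADAR cells MT-RNR1 had 2334 and 1076 and MT-RNR2 12467 and 7283 CPM with IFN-β, which overlapped the vehicle values, and the changes were -0.10 ± 0.26 (SE, adjusted p = 0.82) and -0.06 ± 0.18 (SE, adjusted p = 0.85) by edgeR. The difference between the responses was tested in the same fit and came to -1.48 ± 0.37 (SE, adjusted p = 0.016) for MT-RNR1 and -0.83 ± 0.26 (SE, adjusted p = 0.061) for MT-RNR2. With the sgRNA as a block it was -1.47, adjusted p = 2.7e-16 and -0.82, adjusted p = 6.9e-05 by edgeR, so MT-RNR2 then passed too. DESeq2 and the fit of all 20 libraries did not call MT-RNR1. Nor was it called without GFP vehicle sg1 (-1.196), GFP IFN-β sg2 (-1.22) or ADAR IFN-β sg2 (-1.02). Without A549 ADAR vehicle sg1 it was -0.69 for MT-RNR1 (edgeR adjusted p = 0.20), and the response in ADAR cells turned to 0.70 and 0.46, both then called. Without ADAR IFN-β sg1 it was -0.78 and -0.52, also both called, and without ADAR vehicle sg2 MT-RNR1 was called at -0.60. With IFN-β in both arms, ADAR and GFP cells differed by 0.19 and 0.19, neither called. These 3 contrasts share libraries: the 2 GFP vehicle libraries were the lowest of the 8 for both rRNAs.

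In the ADAR1-dependent lines MT-RNR1 again had larger fold changes than MT-RNR2. NCI-H1650 had 161 and 198 CPM with GFP and 261 and 269 with ADAR sgRNAs, with no overlap (0.55 ± 0.11 SE, adjusted p = 2.2e-04 by edgeR, where 6.18% of genes were called higher and 27.6% were apart and higher). MT-RNR2 had 1899 and 2192 against 2004 and 2394, which overlapped (0.09 ± 0.10 SE, adjusted p = 0.68 by edgeR). In NCI-H196 MT-RNR1 had 63.3 and 73.0 against 136 and 129.7 CPM (1.06 ± 0.11 SE, adjusted p = 2.0e-18) and MT-RNR2 618 and 699 against 707 and 1014 (0.48 ± 0.11 SE, adjusted p = 4.1e-04), edgeR values, where 10.3% of genes were called higher. With the sgRNA number as a block MT-RNR2 was no longer called in NCI-H196 (0.28, adjusted p = 0.89), and neither rRNA was called in NCI-H1650 or NCI-H196 in the fit of all 20 libraries or without GFP sg1. MT-RNR2 in NCI-H196 was also lost with DESeq2 and without either ADAR library (0.52 and 0.14). For MT-RNR1 in NCI-H196 DESeq2 set no adjusted p. The NCI-H196 GFP sg2 values rest on 7 reads of MT-RNR1 and 67 of MT-RNR2. In HCC366 the ADAR libraries held 227 and 7769 CPM of MT-RNR1 and 2307 and 11670.0 of MT-RNR2, while the GFP libraries held 373 and 187 of MT-RNR1 and 2797 and 2578 of MT-RNR2. The fold changes there were 3.91 ± 1.22 (SE, adjusted p = 0.16) and 1.44 ± 0.61 (SE, adjusted p = 0.26) by edgeR and rested on ADAR sg2. Without it they were -0.26 and -0.21. Between lines, MT-RNR1 differed from A549 by -1.12, -1.74 and -3.22 (log2) in HCC366, NCI-H1650 and NCI-H196, of which HCC366 did not pass (edgeR adjusted p = 0.14). MT-RNR2 differed by -0.98, -1.38 and -3.04, all called lower.

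A ratio within a library does not depend on how the libraries were scaled. MT-RNR1 counts were 9.71 and 12.5% of MT-RNR2 counts in A549 GFP vehicle libraries, 19.3 and 14.7% in ADAR vehicle, 14.7 and 19.8% in GFP IFN-β and 18.7 and 14.8% in ADAR IFN-β libraries. Both GFP vehicle libraries lay below the other 6. NCI-H1650 went from 8.45 and 9.02% with GFP to 13.01 and 11.2% with ADAR sgRNAs and NCI-H196 from 10.2 and 10.4% to 19.3 and 12.8%, without overlap in either line. HCC366 held 13.3 and 7.24% with GFP and 9.82 and 66.6% with ADAR sgRNAs, which overlapped. The second NCI-H196 GFP value rests on 7 reads of MT-RNR1 and 67 of MT-RNR2, the fewest of any library. No test was made of this ratio.

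**Figure D5:**
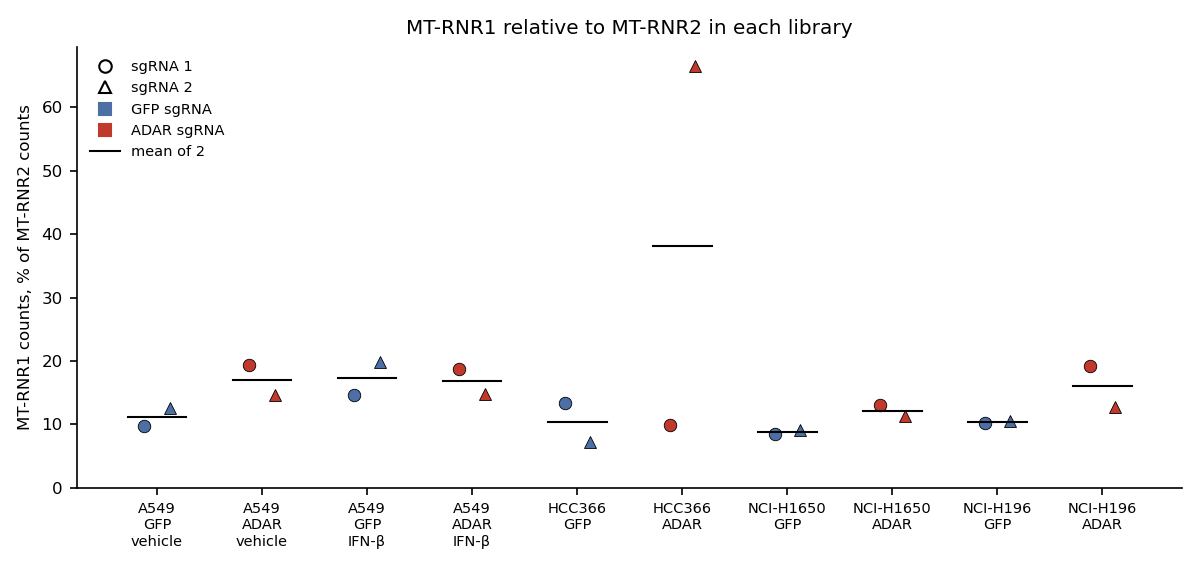
MT-RNR1 counts as a percentage of MT-RNR2 counts in each library, with GFP sgRNAs in blue, ADAR sgRNAs in red, circles for sg1, triangles for sg2 and a bar at the mean of 2. The ADAR libraries lie above the GFP libraries in A549 with vehicle, NCI-H1650 and NCI-H196, and HCC366 ADAR sg2 stands alone at 66.6%.

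MT-ND6, a complex I subunit and the only mRNA on the other strand, lay low in the order of every line. The reads on this gene could not be assigned to a strand, so its values may include RNA of either strand. It had 439.6 and 683 CPM in A549 GFP vehicle libraries, 104 and 119 in HCC366, 63.7 and 54.6 in NCI-H1650 and 52.4 and 20.9 in NCI-H196. ADAR sgRNAs changed it by -0.19, -0.18, -0.13 and 0.30 (log2) in HCC366, NCI-H1650, NCI-H196 and A549 with vehicle, and none passed. Its part of the mRNA counts was 1.44 to 1.96% in A549 and 0.759 to 0.975% in NCI-H1650, and it was highest (2.92%) in HCC366 ADAR sg2. Nuclear copies of mitochondrial sequence, to which a mitochondrial read may also align, held 0.416 to 2.71 reads for every 100 on the 37 genes. MTATP6P1 took the most of these, 27445 reads over the 20 libraries, followed by MTCO1P12 with 16064. Of 20 listed copies, 11 were matched to the counts. Reads of MT-ATP6 and MT-CO1 may be split with these copies or counted as not unique. The range above is over all 37 genes and holds no alignment that was not unique, so it does not bound the uncertainty of either gene.

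The nuclear genes that serve the mitochondrial genome were read from lists drawn up by function. For 15 genes of mitochondrial transcription (12 tested in HCC366), ADAR sgRNAs gave 0 calls in HCC366 and in A549 with vehicle, and IFN-β gave 0 in A549 GFP cells. With ADAR sgRNAs 2 of 14 fell in NCI-H1650, GABPA (-0.60, adjusted p = 0.0092 by edgeR), a transcription factor, and TFB2M (-0.52, adjusted p = 0.0499), which helps the polymerase start, where 2.42% of all genes were called lower. In NCI-H196 NRF1, a regulator of mitochondrial genes, rose (0.54, adjusted p = 0.020) and none fell, against 10.3% of all genes called higher and 7.50% lower. In A549 under IFN-β the ADAR cells had 4 lower and 1 higher, led by POLRMT (-0.49, adjusted p = 0.0038), the mitochondrial RNA polymerase, MRPL12 (-0.57, adjusted p = 0.013), MTERF4 (0.53, adjusted p = 0.014) and PPARGC1B (-0.44, adjusted p = 0.025), edgeR values, where 6.19% of all genes were called lower and 10.8% higher. IFN-β in ADAR cells lowered 4 and raised 1, with MTERF1 highest (1.00, adjusted p = 0.0017) and POLRMT lower (-0.35, adjusted p = 0.027), where 9.04% of all genes were called lower and 15.5% higher. TFAM, which packages the genome and starts transcription, was called in none of the ADAR and IFN-β contrasts (log2 fold changes -0.84 to 0.15).

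Among 23 genes for mitochondrial RNA processing and decay, IFN-β raised PNPT1 in A549 GFP (2.29, adjusted p = 1.4e-17) and ADAR cells (2.08, adjusted p = 1.5e-16), both by edgeR. In all, 2 of the 23 were called higher in GFP cells, against 4.39% of all genes, and 3 in ADAR cells, against 15.5%, PTCD2 among them (0.48, adjusted p = 0.013). In ADAR cells 3 fell, against 9.04% of all genes, with HSD17B10, a subunit of mitochondrial RNase P, at -0.38, adjusted p = 0.0088. With ADAR sgRNAs none was called in NCI-H1650, HCC366 (21 tested) or A549 with vehicle, 1 was lower in NCI-H196 (REXO2, -0.69, adjusted p = 0.016 by edgeR) and 2 were lower in A549 with IFN-β (HSD17B10, -0.46, adjusted p = 0.0028, and ELAC2, -0.31, adjusted p = 0.041). These are 4.35% and 8.70% of the list, against 7.50% and 6.19% of all genes called lower. PNPT1 (-0.50 to 0.15) did not pass the test with ADAR sgRNAs in any line. LRPPRC, which binds and stabilizes mitochondrial mRNAs, was called in none of these contrasts (-0.46 to 0.03).

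The last list held 15 genes that maintain mitochondrial DNA. ADAR sgRNAs lowered DNA2, a nuclease and helicase, in NCI-H1650 (-0.47, adjusted p = 0.019) and NCI-H196 (-0.52, adjusted p = 0.019), where MGME1 fell (-0.34, adjusted p = 0.0496) and POLG, the DNA polymerase, rose (0.32, adjusted p = 0.021), edgeR values. The members called lower were 6.67% of the list in NCI-H1650 and 13.3% in NCI-H196, against 2.42% and 7.50% of all genes. In A549 with IFN-β they lowered FEN1 (-0.41, adjusted p = 0.0075) and raised RRM2B (0.48, adjusted p = 0.022), 1 of 15 each way, where 6.19% of all genes were called lower and 10.8% higher. None was called in HCC366 or in A549 with vehicle. IFN-β called 0 of 15 in GFP cells, and in ADAR cells it raised POLG (0.45, adjusted p = 0.0037) and POLG2 (0.56, adjusted p = 0.015) and lowered FEN1 (-0.41, adjusted p = 0.0053), edgeR values, where 15.5% of all genes were called higher and 9.04% lower.

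The nuclear partners of the mitochondrial mRNAs, 76 subunits of complexes I to V, were called lower more often than higher wherever any was called. ADAR sgRNAs lowered 5 of 75 in NCI-H1650 (6.67%, against 2.42% of all genes), among them COX8A (-0.58, adjusted p = 0.0066), NDUFA12 (-0.59, adjusted p = 0.011), ATP5PB (-0.42, adjusted p = 0.012) and COX6C (-0.40, adjusted p = 0.020), edgeR values. In NCI-H196 6 of 76 fell (7.89%, against 7.50%), led by NDUFB5 (-0.45, adjusted p = 0.0075), and in HCC366 and A549 with vehicle none was called. In A549 with IFN-β ADAR sgRNAs lowered 12 of 75, against 6.19% of genes, led by COX6B1 (-0.53, adjusted p = 6.1e-04), ATP5F1D (-0.63, adjusted p = 0.0011), NDUFB7 (-0.74, adjusted p = 0.0015) and ATP5MC1 (-0.47, adjusted p = 0.0019). IFN-β lowered 0 of 75 in GFP and 24 of 75 in ADAR cells (32.0%, against 9.04%), with ATP5MC1 (-0.66, adjusted p = 1.3e-05), COX6B1 (-0.49, adjusted p = 7.2e-04), ATP5MC3 (-0.47, adjusted p = 9.6e-04) and NDUFA8 (-0.59, adjusted p = 0.0013) first by edgeR adjusted p. The difference between the responses of both cell types was called for 2 of 75 (2.67%), where 5.05% of all genes were called. They were NDUFS5 (-0.62, adjusted p = 0.027) and COX6B1 (-0.51, adjusted p = 0.038), edgeR values. Medians over the list were -0.24 for IFN-β in ADAR cells and 0.01 in GFP cells, beside 0 over all genes, while the 13 mitochondrial mRNAs had -0.13 and -0.03.

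Between lines the nuclear lists lay on the same side as the mitochondrial mRNAs. For HCC366, NCI-H1650 and NCI-H196 in turn, 59, 55 and 64 of the 76 OXPHOS subunits were lower than in A549 (77.6, 72.4 and 84.2%), with medians of -1.17, -0.86 and -1.39. NDUFB10, a subunit of complex I, was among the first 4 in each (-2.66, adjusted p = 1.3e-12, -2.20, adjusted p = 3.5e-12 and -3.13, adjusted p = 4.6e-13, edgeR). POLRMT was lower in all 3 (-0.69, adjusted p = 0.015, -2.20, adjusted p = 2.8e-09 and -1.80, adjusted p = 2.4e-06, edgeR). In the transcription list 7, 10 and 8 of 15 were lower, in the processing list 9, 10 and 13 of 23, and in the maintenance list 10, 8 and 9 of 15, where 26.6, 26.3 and 27.6% of all genes were called lower. Among nuclear protein-coding genes with under 1000 exon bases, 44.2, 44.2 and 53.2% were called lower. The lists were not matched for gene length, and its part in their differences was not tested. Of 8 interferon-stimulated genes, a check of the interferon state, 8, 7 and 6 were higher than in A549 in the 3 lines, and none was lower. Their median log2 differences were 5.18, 7.21 and 5.38, beside medians between 0 and 0.07 over all genes tested. The share of all genes called higher is not reported here.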

How the data were processed

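RNA from 20 libraries of 4 lung cancer cell lines was depleted of rRNA with the NEBNext kit and made into stranded libraries. Per the submitters' processing notes and the study's methods, the authors aligned paired reads to hg19 with STAR and counted genes with HTSeq (versions, the mitochondrial reference and the strand setting are not given in the sources used here). The deposited files hold raw counts per gene identifier with HTSeq's unassigned classes. These were left out of library sizes and tests, with alignments not unique at 22.5 to 85.6% of all records, and ambiguous reads at 10.3 to 14.0% of these and the gene counts together. Symbols covered 97.4% of counts.

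Each comparison was fitted on counts with edgeR 4.0.16 (TMM, filterByExpr, quasi-likelihood test) in R 4.3.3, over all genes passing the filter, with Benjamini-Hochberg adjustment and a threshold of 0.05. ADAR and GFP sgRNAs were compared within a line, A549 in a 4-group fit with the interaction, and lines by their GFP libraries in a fit of all 20. DESeq2 1.42.0 and other scalings, filters, blocks and left-out libraries were the alternatives. The fit was tested on simulated counts. CPM per 1000 bases used annotated gene lengths. Intervals cover counting error only.

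The 2 sgRNAs of a target were the replicates. Vehicle and IFN-β libraries of 1 sgRNA share the transduced A549 cells by their labels, so these were also fitted with the sgRNA as a block (correlations of deviations -0.0592 and -0.00477). Named genes are the 13 mRNAs, 2 rRNAs and MT-TP, up to 4 genes per list and comparison with the lowest adjusted p, and always PNPT1, POLRMT, TFAM and LRPPRC. Some listed genes are not reported here. The members and lists were chosen with earlier results of these data known. Columns of value outside the mapped samples numbered 0.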

Additional observations from a re-analysis of the deposited data

Results flagged for a closer look

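The response of MT-RNR1 to IFN-β differed between A549 ADAR and GFP cells, by the interaction term of the edgeR fit (-1.48 on the log2 scale, adjusted p = 0.016). In GFP cells 2 of 2 IFN-β libraries lay above both vehicle libraries, and in ADAR cells the groups overlapped. DESeq2 gave an adjusted p of 0.37 and the fit of all 20 libraries 0.58 for the same term. How completely rRNA was depleted in each library was not measured, and its part in this difference was not tested.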

How the results depend on the processing

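The 13 mRNAs were called lower than in A549 in HCC366 and NCI-H1650 under every alternative run, and in NCI-H196 12 to 13 were, with medians of -2.32 to -1.80, -2.89 to -2.39 and -4.49 to -3.29 when 1 library was left out. The ADAR and IFN-β counts depended on the settings. Without the filter on low counts the calls became 1 (HCC366), 1 (NCI-H196), 2 (ADAR in A549 with IFN-β), 2 (IFN-β in GFP cells) and 4 (IFN-β in ADAR cells). DESeq2 gave 2 in NCI-H1650 and 0 in NCI-H196, where it set no adjusted p for MT-RNR1 and MT-ATP6. The fit of all 20 libraries gave 8 in HCC366 and 0 in NCI-H1650 and NCI-H196. The cause was not tested, and the share of all genes called under these settings is not reported here. Counting unassigned reads in the total moved the mRNA share to 1.12% for A549, 0.327% for HCC366, 0.325% for NCI-H1650 and 0.261% for NCI-H196 (GFP, no IFN-β).

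Pairing by sgRNA was tried as a block. The block by sgRNA, which pairs vehicle and IFN-β libraries of the same A549 cells, gave 2 calls for IFN-β in GFP cells and 2 in ADAR cells, and moved no other count of mRNA calls. The block by sgRNA number across targets, which share only a number (correlations of deviations -0.253 to 0.0368), gave 0 in NCI-H196. With crossed sgRNA numbers in HCC366, where the correlation was -0.253, 3 mRNAs were called.

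Leaving out 1 library at a time gave 0 to 10 calls in HCC366, 0 to 6 in NCI-H1650, 0 to 4 in NCI-H196 (medians -0.21 to 0.31), 0 to 11 for ADAR in A549 with IFN-β (-0.25 to 0.60), 0 to 6 for IFN-β in GFP cells, 0 to 2 for IFN-β in ADAR cells (-0.35 to 0.28) and 0 to 5 for the interaction (-0.39 to 0.55). Left-out libraries moved MT-RNR1 from -0.78 to 0.70 and MT-RNR2 from -0.52 to 0.46 for IFN-β in ADAR cells, and MT-ATP6 from -0.31 to 0.43 in NCI-H196. Without A549 ADAR vehicle sg1 both rRNAs, and without NCI-H196 GFP sg1 MT-ATP6, turned to the upper value. Over all counts, medians and shares under settings that kept every library, 135 values stayed within 1.5 times or within the spread and 18 moved. Depth limits NCI-H196 GFP sg2 most, where 1 read is 15.95 CPM.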
